A study of Mus musculus with 36 samples.

Results

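The troponin complex of the mouse heart was followed through its 8 striated muscle genes, which are Tnni1, Tnni2 and Tnni3 for troponin I, Tnnt1, Tnnt2 and Tnnt3 for troponin T, and Tnnc1 and Tnnc2 for troponin C. Every row of the expression table that carried one of these symbols was taken, which gave 12 probe sets of 45101, or 8 genes of 20701. A probe set is a group of short probes whose readings are summarized into 1 signal, which may come from more than 1 transcript. Tnni2 and Tnnt2 were each read by 3 probe sets, and the other 6 genes by 1 each. Hearts of OF1 (Oncins France 1) mice were sampled daily from E10.5 to E19.5, in young adults of 10 weeks and in old adults. The old animals were 14 months of age in the deposited description and 10 months in the study's methods. Each of the 12 stages had 3 arrays, 36 in all, without treatment or genetic change. The 3 arrays of E10.5 and the 3 of E11.5 held mixed samples, and every later stage had 1 female, 1 male and 1 mixed sample. Sex and array-to-array spread therefore cannot be told apart within a stage, and 3 arrays limit the precision of every stage mean. Hearts of both sexes were combined in the mixed samples.

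Troponin is the calcium switch of striated muscle. It sits with tropomyosin on the actin filament, where troponin C binds calcium, troponin I holds back the contact between actin and myosin, and troponin T ties the complex to tropomyosin. Each subunit exists in slow skeletal, fast skeletal and cardiac forms from separate genes, except that the slow skeletal and cardiac forms of troponin C share Tnnc1. The embryonic rodent heart is known to use slow skeletal troponin I, which lacks the N-terminal extension of cardiac troponin I that protein kinase A phosphorylates.

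Whole hearts were measured, so fewer cells of a type and less RNA per cell cannot be told apart. The labelled tissue was checked against marker genes read from their brightest probe sets. All 7 cardiomyocyte markers found of 8 listed were above 5, the log2 signal that the study's methods took as the limit of expression, and their summed signal lay between 14.49 and 15.54 on every array. The label text on RNA extraction names liver, whereas source and tissue fields name heart. None of the 4 liver markers found of 5 listed reached 5 on any array, and Alb, the gene for serum albumin, peaked at 4.54. The array medians spanned 4.0 to 4.2. A set of 18 hybridization control probe sets, which read RNA added before hybridization, averaged 12.17 in young adults, 11.37 in old adults, 11.16 at E19.5 and 9.90 at E10.5, so their level moved with stage.

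The troponin genes lie partly in pairs. Tnnt1 and Tnni3 were direct neighbours on chromosome 7 in the RefSeq gene table, and only Lad1 lay between Tnni1 and Tnnt2 on chromosome 1 among protein-coding genes. Lsp1 lay between Tnni2 and Tnnt3 on chromosome 7. Tnnc1 and Tnnc2 are on chromosomes 14 and 2. The RefSeq promoter table (GRCm38.p6) held windows for 6 of the 8 genes, and Tnni2 and Tnnt3 were not in it. The 250 bases before the start of Tnni1 (chr1:135799171-135799420, plus strand), Tnni3 (chr7:4522529-4522778, minus strand) and Tnnt1 (chr7:4515976-4516225, minus strand) are shown because, among the members with a window, these 3 differed most between E10.5 and young adults. Of several listed starts the first was taken, and each sequence runs 5′ to 3′ on the strand of the gene, with capitals for matches to the motifs named after them.
Tnni1: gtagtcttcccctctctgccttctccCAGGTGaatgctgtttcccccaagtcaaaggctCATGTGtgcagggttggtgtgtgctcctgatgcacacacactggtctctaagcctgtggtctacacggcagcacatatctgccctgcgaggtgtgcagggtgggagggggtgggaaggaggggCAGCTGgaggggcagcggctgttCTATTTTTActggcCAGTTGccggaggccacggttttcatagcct
Tnni3: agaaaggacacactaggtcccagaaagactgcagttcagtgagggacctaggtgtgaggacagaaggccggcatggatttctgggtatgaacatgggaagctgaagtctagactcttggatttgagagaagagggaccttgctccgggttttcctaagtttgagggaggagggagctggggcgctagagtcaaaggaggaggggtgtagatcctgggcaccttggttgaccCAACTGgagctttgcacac
Tnnt1: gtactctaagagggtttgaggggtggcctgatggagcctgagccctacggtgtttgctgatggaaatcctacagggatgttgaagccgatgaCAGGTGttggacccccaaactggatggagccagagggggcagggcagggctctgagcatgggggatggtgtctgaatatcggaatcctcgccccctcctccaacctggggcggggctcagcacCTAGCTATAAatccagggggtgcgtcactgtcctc
Motifs were searched on both strands as TATAA for the TATA box, GATAA for GATA factors, CATTCC for the M-CAT element, CANNTG for the E-box and CTANNNNTA as a MEF2-like element. The Tnni1 window held a MEF2-like match 45 bases before the start and 4 E-boxes, and the Tnni3 window held 1 E-box, 19 bases before the start. In the Tnnt1 window TATAA stood 30 bases before the start, where it overlapped a MEF2-like match, and 1 E-box lay farther out. Counted over the first window of each gene, all 6 members held an E-box, as did 66% of the 27025 genes in the table. The MEF2-like letters were in 2 of the 6, Tnni1 and Tnnt1, against 19% of all genes, and TATAA in 3 of the 6 against 23.5%. Tnni1 and Tnnt2 each had a second listed window. That of Tnni1 overlapped the first, and its 1 MEF2-like match was the same site. The second Tnnt2 window held the MEF2-like letters at 2 places. CATTCC was in the windows of Tnnt2 and Tnnc1, against 12.6% of all, and GATAA in that of Tnnt2, against 23%. These are matches of letters, and no binding was measured.

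Tnni1, the slow skeletal troponin I gene, was the member with the widest range. Its log2 signal was 10.87, 11.07 and 10.16 on the 3 arrays of E10.5. The female, male and mixed arrays of E19.5 gave 10.28, 10.43 and 8.93. Young adults gave 3.999, 4.23 and 3.82 in the same order, and old adults 4.17, 3.39 and 4.32. All 30 embryonic arrays lay between 8.88 and 11.07, and all 6 adult arrays between 3.39 and 4.32, with a gap of 4.55 between the nearest arrays of either side. Every adult array was thus below the limit of 5, and every embryonic array above it.

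E10.5 and E19.5 were compared with young adults to ask how far the embryonic heart is from the mature one. Tests were made in limma on all 36 arrays, with p-values adjusted by Benjamini-Hochberg over all 45101 probe sets, with a call wherever the adjusted p was under 0.05. At E10.5 the signal of Tnni1 was 6.69 log2 units (SE 0.32) above young adults, with an adjusted p of 2.5e-17, and at E19.5 it was 5.86 above (adjusted p = 4.3e-15). Young adults lay below the limit of 5, so a fold is given only as a lower bound, with them set to the limit: at least 52.1-fold higher at E10.5 and at least 29.4-fold higher at E19.5. With the hybridization control level as a covariate, which itself differs between stages, the difference at E10.5 was 5.01 (adjusted p = 9.5e-09).

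Within the embryo Tnni1 moved less. The stage means ran from 10.70 (E10.5) over 9.85 (E11.5) and 10.17 (E12.5) to 9.39 (E13.5), and stayed between 9.30 and 9.57 from E14.5 to E18.5. Neighbours in the order of the embryonic stage means overlapped in their arrays throughout, and the single gap without overlap was that between E18.5, the lowest embryonic mean, and young adults. E10.5 exceeded E19.5 by 0.82 (SE 0.32, adjusted p = 0.0378, limma), but the arrays of the 2 stages overlapped, and the call was lost after a further quantile normalization (0.49, adjusted p = 0.182), after median centring (0.48, adjusted p = 0.132) and with the 2 stages fitted alone (0.82, adjusted p = 0.112). The mixed array of E19.5 was the lowest of its stage by more than 1 log2 unit. Without that array the difference was 0.35 (adjusted p = 0.401), and without the first or the second array of E10.5 it was 0.74 (adjusted p = 0.11) or 0.64 (adjusted p = 0.168).

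Tnni3 encodes cardiac troponin I, the form of the adult heart. Its E10.5 arrays gave 10.60, 10.36 and 10.20. The female, male and mixed arrays gave 11.98, 12.01 and 11.91 at E19.5 and 12.32 on each of the 3 young adult arrays. Old adults gave 12.31, 12.69 and 12.16. All 6 adult arrays were above the highest of the 30 embryonic arrays, 12.01, with a gap of 0.15. Its stage mean was above that of the day before in 8 of the 9 daily steps, the exception being E10.5 to E11.5.

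At E10.5 the signal of Tnni3 was lower than in young adults by 3.83-fold, with an interval of 3.07 to 4.77 (log2 difference -1.94, SE 0.16, adjusted p = 5.2e-12, limma). It was also 3.00-fold lower than at E19.5 (log2 difference -1.58, adjusted p = 1.8e-09). The remaining difference of E19.5 from young adults, -0.35, did not pass (adjusted p = 0.0915), although the arrays did not overlap. With each array centred on the median of its probe sets with a mean above 5, it was -0.54 (adjusted p = 0.00619, limma). Most of the measured change of Tnni3 thus fell between E11.5 (10.26 ± 0.33, SD, n = 3) and E17.5 (11.78 ± 0.04, SD, n = 3), whereas most of that of Tnni1 fell between E19.5 and 10 weeks, an interval without samples.

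**Figure D1:**
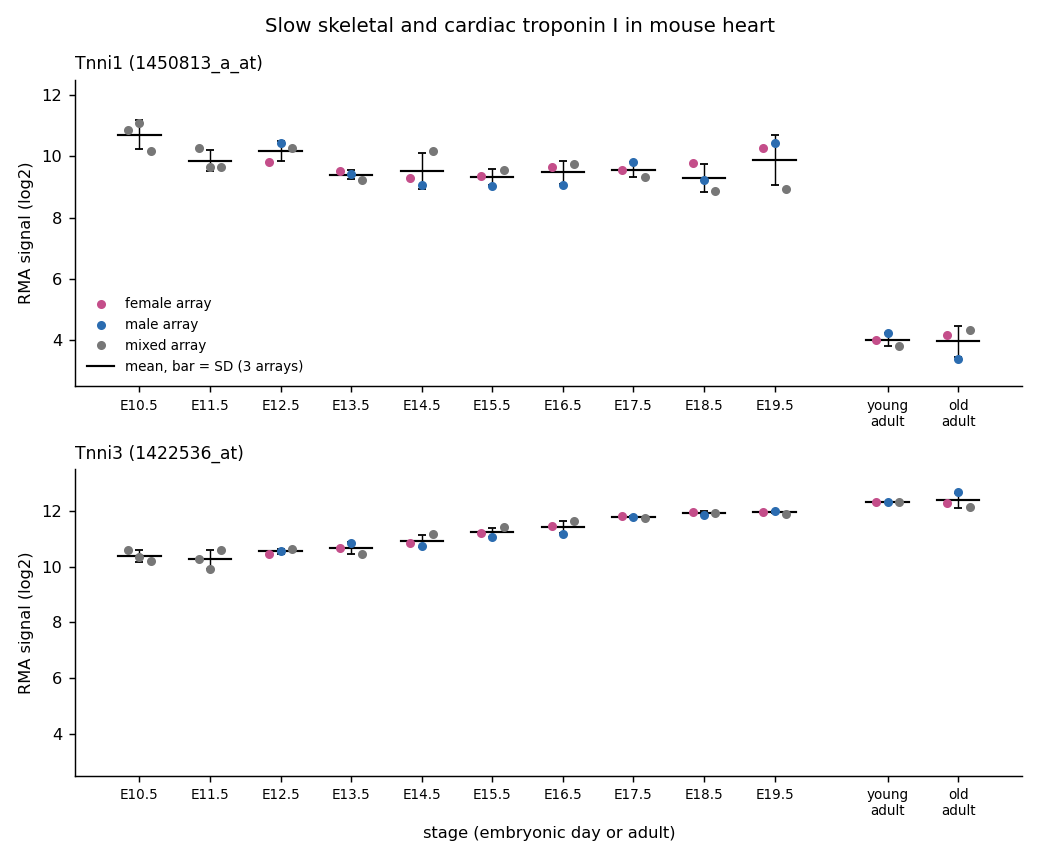
Log2 signal (vertical axis) of Tnni1 and Tnni3 at each of the 12 stages (horizontal axis), with 1 point per array coloured by sex label and bars for the mean and SD of 3 arrays. Embryonic Tnni1 arrays lie between 8.88 and 11.07 and adult ones between 3.39 and 4.32, while Tnni3 climbs from 10.39 at E10.5 to 12.32 in young adults.

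Tnni2, the fast skeletal troponin I gene, differed mainly within the embryo. On its brightest probe set the arrays of E10.5 gave 7.02, 6.63 and 5.99, those of E19.5 gave 4.26, 4.03 and 4.09, and those of young adults 3.38, 3.95 and 4.09. The stage mean was above 5 at the 5 stages from E10.5 to E14.5 and below it afterwards. E10.5 was higher than young adults by 2.74 on the log2 scale (adjusted p = 2.5e-08, limma) and higher than E19.5 by 2.42 (adjusted p = 6.5e-07). With the later stages, which lay below 5, set to that limit, both were at least 2.92-fold. E19.5 and young adults differed by 0.32 with an interval of -0.35 to 0.99 (adjusted p = 0.516).

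The other Tnni2 probe sets were dim and did not move together. The probe set 1438609_x_at, between 2.89 and 4.87 on all arrays, was higher at E10.5 than in young adults by 0.95 (adjusted p = 2.7e-04). The probe set 1438608_at, between 2.08 and 3.27, was lower (log2 difference -0.74, adjusted p = 5.3e-04). With the hybridization control level as a covariate, the difference of the brightest probe set at E10.5 from young adults was 0.94 (adjusted p = 0.224).

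Skeletal and blood cell markers were read beside Tnni2. Of 13 skeletal muscle markers found of 14 listed, Mylpf, Casq1 and Mybpc2 passed 5 on some array, and the other 10 stayed at or below 4.96, the muscle regulators Myod1 and Myog included. Of the 13, 2 were higher and 7 lower at E10.5 than in young adults (limma, median -0.47). The shares of all probe sets were 27.1% and 35.9% (median -0.19). Against E19.5, 1 was higher and 5 lower at E10.5 (median -0.28), beside 21.8% and 23.7% of all (median -0.15). Among the lower ones in both comparisons, only Mybpc2 passed 5 on any array. Mylpf, a fast skeletal myosin light chain gene, averaged 7.16 on the E10.5 arrays, 5.49 a day later and 4.79 by E19.5. Casq1, the skeletal calsequestrin gene, was also higher at E10.5 than in young adults (log2 difference 1.85, adjusted p = 2.4e-05, limma), and Mybpc2, fast skeletal myosin-binding protein C, was lower (-3.04, adjusted p = 1.3e-09). The summed skeletal signal of an array lay between 8.88 and 9.51 (E10.5), between 8.70 and 8.98 (E19.5) and between 8.0 and 8.59 (young adults). The summed signal of the 4 erythroid genes averaged 13.83 at E10.5, 12.84 at E14.5 and 6.17 at E17.5. The part of these cells in the Tnni2 signal was not tested.

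Among the troponin T genes, Tnnt1, the slow skeletal form, was highest in mid-gestation. Its arrays gave 8.77, 8.85 and 8.68 at E10.5. At E13.5, the stage of its highest mean, the female, male and mixed arrays gave 10.13, 10.20 and 10.49. The same order gave 7.82, 7.94 and 7.36 at E19.5, against 6.09, 6.33 and 7.24 in young adults. The 3 arrays of E13.5 were all above those of E10.5 and of E19.5, and all 30 embryonic arrays were above the 6 adult ones, the nearest by 0.13. The adult arrays were the most scattered, with 6.55 ± 0.60 (SD, n = 3) in young and 6.22 ± 0.53 (SD, n = 3) in old adults.

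Against young adults, Tnnt1 was higher by 2.22 at E10.5 (SE 0.24, adjusted p = 2.0e-09, limma), by 3.72 at E13.5 (adjusted p = 2.7e-14) and by 1.15 at E19.5 (adjusted p = 3.1e-04). As folds these were 4.65 at E10.5 and 2.22 at E19.5. Against E19.5, the differences were 1.06 at E10.5 (adjusted p = 5.1e-04, and 0.85 with adjusted p = 0.0596 with the hybridization covariate) and 2.57 at E13.5 (adjusted p = 1.7e-09). The steepest daily steps, a difference of 0.82 from E11.5 to E12.5 and a change of -0.79 from E15.5 to E16.5, did not pass (adjusted p = 0.408 and 1.00).

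Tnnt2, the cardiac troponin T gene, was above 12 on every array on 2 of its probe sets. On the brightest, the arrays of E10.5 gave 12.42, 12.39 and 12.32, those of E19.5 12.92, 12.87 and 12.90, and those of young adults 12.53, 12.41 and 12.50. All 3 arrays of E19.5 were above those of both other stages, which overlapped each other. E19.5 was 1.34-fold above young adults (interval 1.14 to 1.56, adjusted p = 0.00462, limma) and 1.43-fold above E10.5 (interval 1.22 to 1.68, adjusted p = 3.6e-04). Between E10.5 and young adults the difference was -0.10 with an interval of -0.33 to 0.13 (adjusted p = 0.423), and the probe set 1418726_a_at gave 0.06. The difference passed on the brightest probe set after a further quantile normalization (-0.24, adjusted p = 0.0486) and after median centring (-0.63, adjusted p = 2.4e-05). The difference of E19.5 from young adults did not pass after median centring (0.23, adjusted p = 0.13), with the hybridization covariate (0.20, adjusted p = 0.239) or with the 2 stages fitted alone (0.42, adjusted p = 0.119). That of E10.5 from E19.5 did not pass with the title prefix, the word heart at the start of an array title, as a block (-0.42, adjusted p = 0.17).

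The third Tnnt2 probe set, 1440424_at, had a wider range. Its arrays gave 6.82, 6.71 and 7.12 at E10.5, and the female, male and mixed arrays gave 8.92, 8.56 and 8.62 at E15.5, its peak. They gave 8.13, 7.98 and 8.05 at E19.5, and 5.83, 6.86 and 6.96 in young adults. E15.5 and E19.5 did not overlap E10.5 or young adults. It exceeded young adults by 2.15 at E15.5 (adjusted p = 1.1e-05, limma) and by 1.51 at E19.5 (SE 0.36, adjusted p = 0.00167), the latter 2.84-fold. The direction at E19.5 was that of the brighter probe sets, with a larger value, a difference that was not tested. Within stages its deviations followed those of the brightest probe set little (Pearson r = 0.14 over 36 arrays), while those of the 2 bright probe sets went together (r = 0.94), values that arrays and normalization share. The table gives no splice forms, so those of Tnnt2 were not read.

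**Figure D2:**
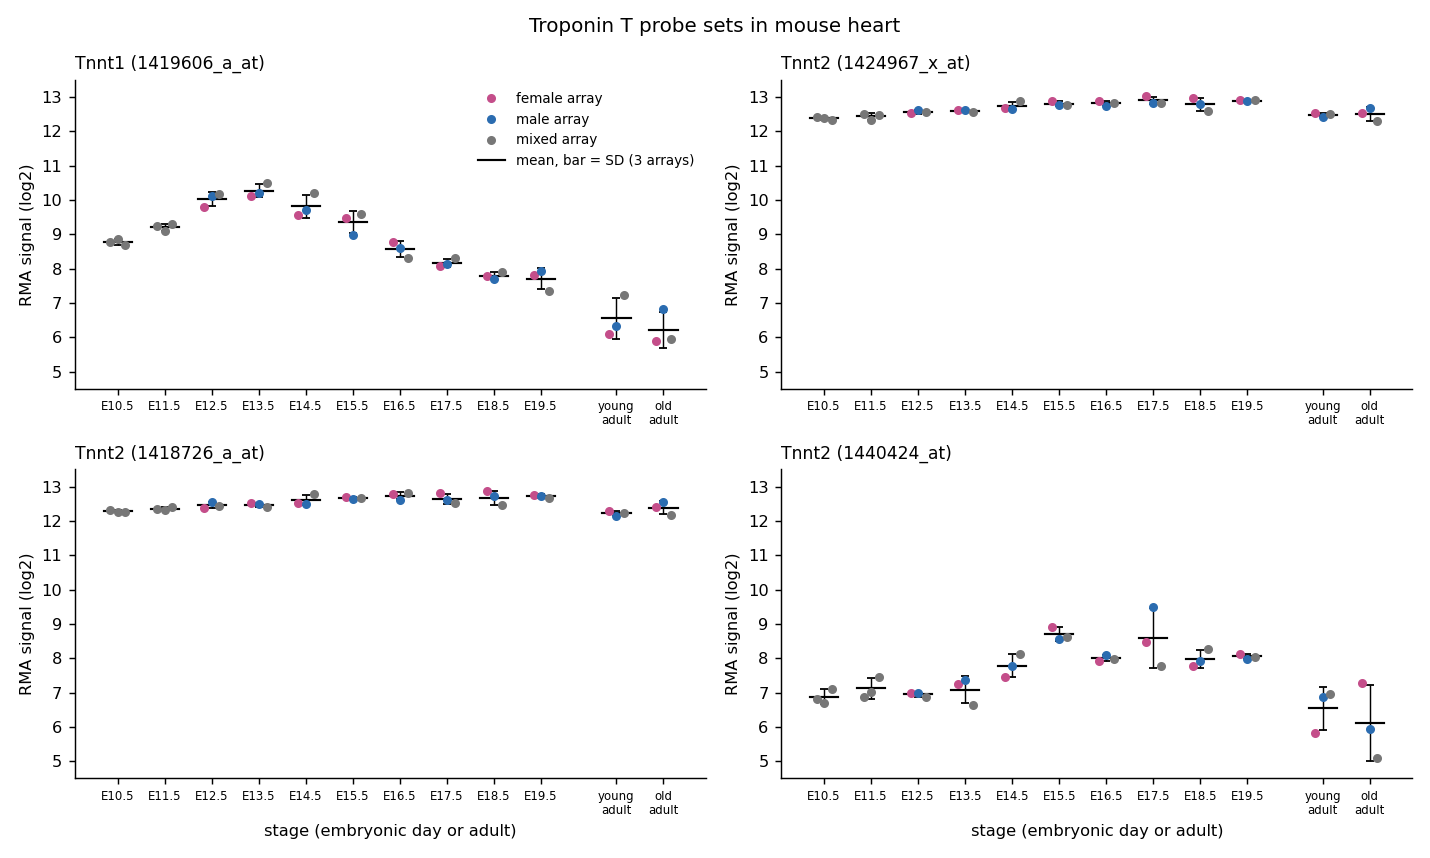
Log2 signal (vertical axis) of Tnnt1 and the 3 Tnnt2 probe sets at each stage (horizontal axis), with 1 point per array coloured by sex label and bars for the mean and SD of 3 arrays. Tnnt1 peaks at 10.27 at E13.5, the bright Tnnt2 probe sets stay above 12, and 1440424_at peaks at 8.70 at E15.5.

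Tnnt3, the fast skeletal troponin T gene, did not reach 5 on any array and lay between 2.92 and 3.92. Female, male and mixed arrays gave 3.52, 3.37 and 3.77 in young adults and 2.92, 3.03 and 2.93 in old adults, without overlap. The log2 difference of old from young adults was -0.59 (SE 0.16, adjusted p = 0.0234, limma) at signals below the limit. It was -0.48 (adjusted p = 0.114) without the mixed young adult array, and without the mixed or the female old adult array it was -0.58 (adjusted p = 0.0606) or -0.57 (adjusted p = 0.0523). E10.5 exceeded E19.5 by 0.41 (adjusted p = 0.041) with overlapping arrays. That call was lost after median centring (0.06, adjusted p = 0.765), with the 2 stages fitted alone (0.41, adjusted p = 0.0793), without the first or the second array of E10.5 (0.35 in both, adjusted p = 0.132 and 0.134), and without the female or the mixed array of E19.5 (0.35 and 0.33, adjusted p = 0.109 and 0.16).

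Tnnc1, which encodes the troponin C of heart and slow muscle, varied least in relation to its spread. Its stage means ranged over 0.51 log2 units, from 11.36 at E11.5 to 11.87 at E19.5, beside a median SD within stages of 0.30. The E10.5 arrays gave 11.91, 11.84 and 11.49, the E19.5 arrays 11.97, 11.98 and 11.66, and the young adult arrays 11.49, 11.79 and 11.65. All neighbours in the order of its stage means overlapped. E10.5 differed from young adults by 0.10 with an interval of -0.35 to 0.56 (adjusted p = 0.698, limma), which turned to -0.05 after a further quantile normalization and to -0.42 after median centring. With the hybridization control level as a covariate, the difference for Tnnc1 was negative and larger in size, as given in the last section. Its deviations within stages ran against those of the hybridization controls (r = -0.75 over 36 arrays), as did those of 5 others of the 8 member probe sets above 5 (r from -0.80 for 1418726_a_at of Tnnt2 to -0.52 for Tnni3), and those of Tnni3 ran with it (r = 0.78 over the same arrays). Tnnc2, the fast skeletal troponin C gene, lay between 3.01 and 4.20 and so below the limit on every array.

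**Figure D3:**
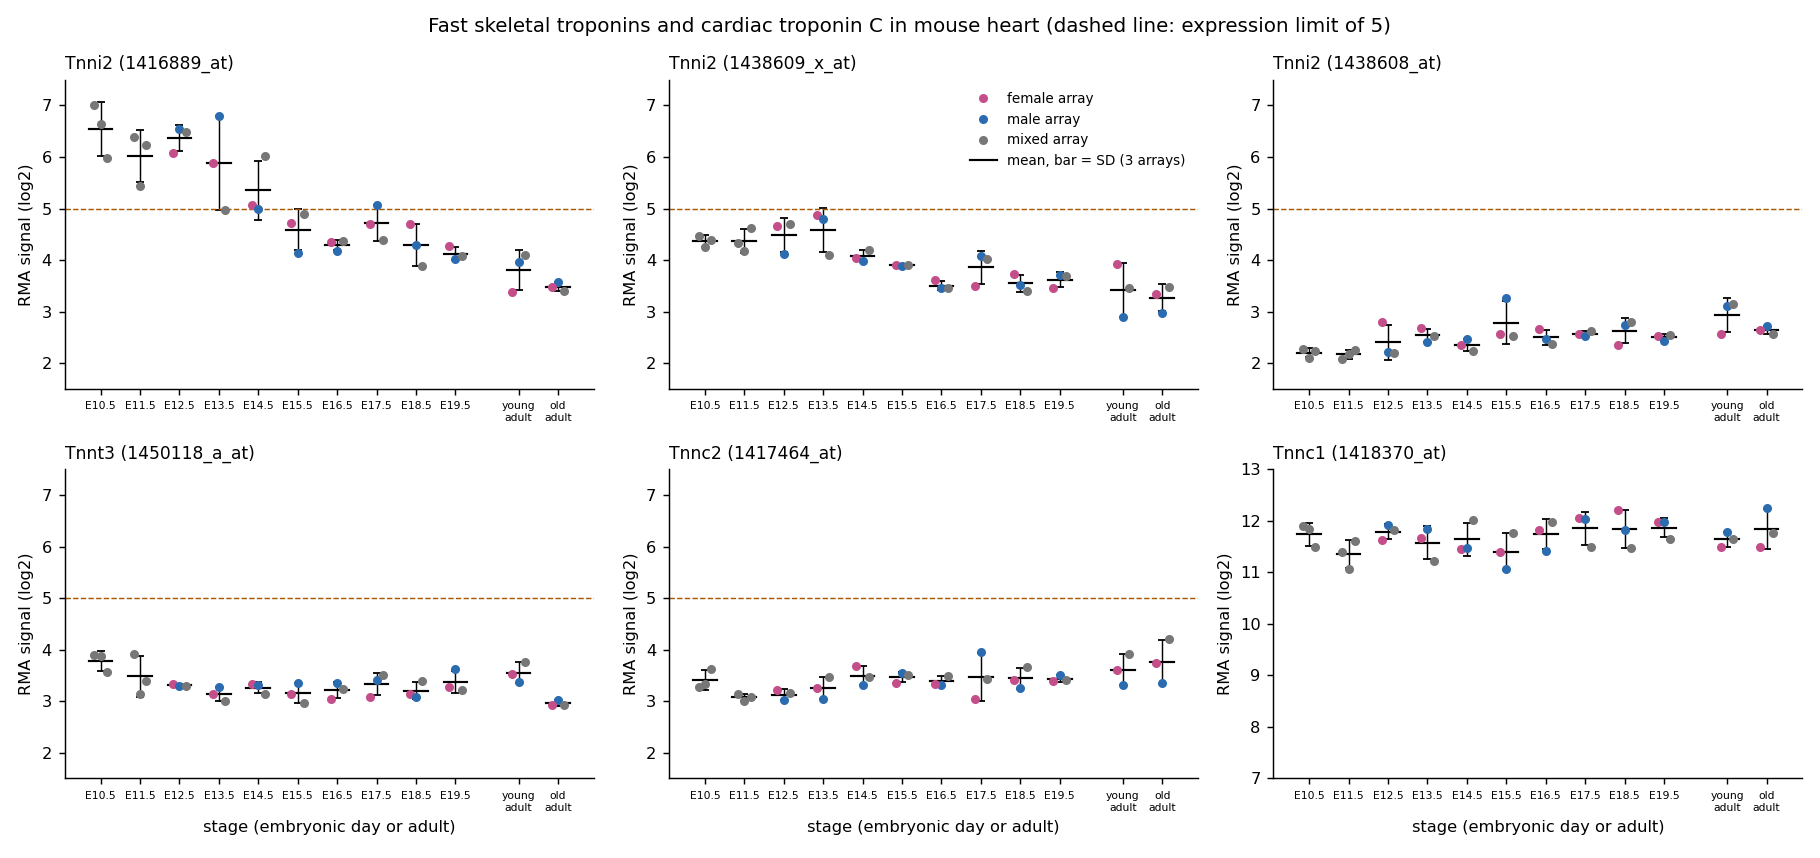
Log2 signal (vertical axis) of the 3 Tnni2 probe sets, Tnnt3, Tnnc2 and Tnnc1 at each stage (horizontal axis), with 1 point per array coloured by sex label, bars for the mean and SD of 3 arrays and a dashed line at 5 on the panels of the fast skeletal genes. Only 1416889_at passes the line, with stage means above it from E10.5 to E14.5, and Tnnc1 stays between 11.06 and 12.26 on an axis of its own.

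Counted over the probe sets, 6 of 12 differed between E10.5 and young adults, 4 with a higher signal at E10.5 and 2 with a lower one, where 27.1% of all probe sets were higher and 35.9% lower. E19.5 exceeded young adults in 5 of 12 and lay below them in 0, beside 15.5% and 13.6% of all. Tnni1, Tnnt1 and the 3 Tnnt2 probe sets made up the 5. Of the other 7, only Tnni3 and the Tnni2 probe set 1438608_at had an unadjusted p under 0.05, and both were lower. E10.5 against E19.5 gave 5 higher and 4 lower, beside 21.8% and 23.7% of all. Under the study's stricter rule for differentially expressed genes, which asks for an adjusted p under 1e-05, a log2 difference above 2 in size and a stage mean above 5, there were 3 at E10.5 against young adults (Tnni1, Tnni2 and Tnnt1, with 6.53% of all). There was 1 at E19.5 against young adults (Tnni1, with 1.45% of all) and 1 at E10.5 against E19.5 (Tnni2, with 2.18% of all). The median log2 difference of the 12 was 0.16 at E10.5 and 0.27 at E19.5 against young adults, beside -0.19 and -0.04 for all probe sets. It was -0.07 for E10.5 against E19.5, beside -0.15 for all. Of the 12, 8 had a stage mean above 5 and could meet the rule. E10.5, E19.5 and young adults are shared between these comparisons.

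Old adults were compared with young adults for changes with age. Of the 12 probe sets 1 differed, Tnnt3, which was lower, beside 3.83% of all probe sets higher and 3.13% lower, a share near that of all. The median log2 difference of the 12 was -0.10, beside -0.02 for all. For Tnni1 the difference was -0.06 with an interval of -0.71 to 0.60, and for Tnni3 it was 0.06 with an interval of -0.25 to 0.38. Tnnt1 differed by -0.34, with an interval of -0.82 to 0.15 (adjusted p = 0.413, limma).

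**Figure D4:**
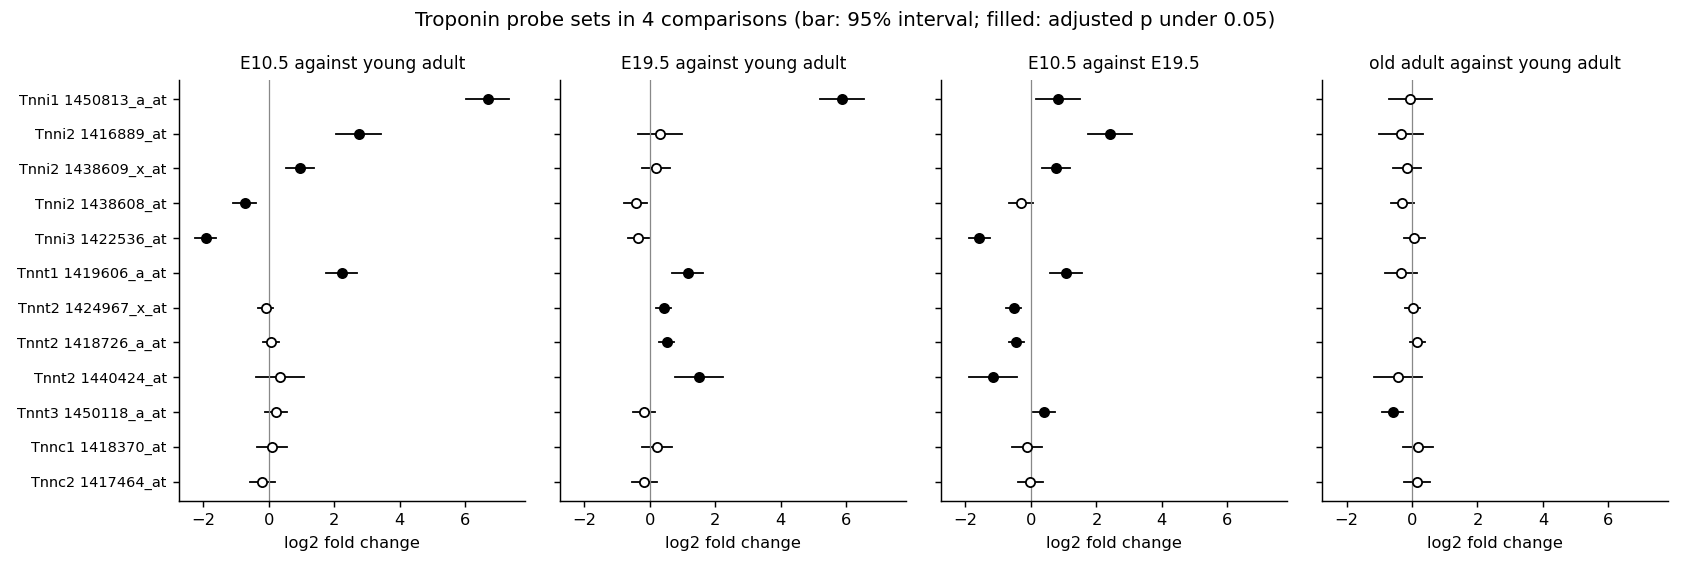
Log2 fold changes (horizontal axis) of the 12 troponin probe sets (vertical axis) in 4 comparisons, with 95% intervals and filled points at an adjusted p under 0.05. Tnni1 stands at 6.69 and 5.86 above young adults at E10.5 and E19.5, and Tnnt3 alone is filled in the comparison of old with young adults.

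Daily steps were compared to locate the days on which the members moved. None of the 108 combinations of 9 steps and 12 probe sets passed in limma, 9 had an unadjusted p under 0.05, and the lowest adjusted p was 0.163, for Tnni1 from E10.5 to E11.5. Without the third array of E10.5 that step was called (log2 difference -1.12, adjusted p = 0.0428). The share of all probe sets called was 2.53% from E10.5 to E11.5, 0.0976% to E12.5, 1.25% to E13.5, 0.0599% to E14.5 and 0.0377% to E15.5. It was 0.0111% to E16.5, 0.0133% to E17.5, 0% to E18.5 and 1.33% to E19.5.

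The sexes were compared in 9 male and female pairs, 1 a stage from E13.5 on, in a fit that held the stages apart. No troponin probe set passed, none had an unadjusted p under 0.05, and the lowest adjusted p was 0.657, for Tnni1, while 0.0488% of all probe sets were called. The mean male minus female log2 difference of Tnni1 was -0.21 (SE 0.11), and the male array was higher in 3 of 9 pairs. Whether the male minus female difference itself differed between adult and embryonic pairs was tested as an interaction, and 0 of 12 passed, beside 0.548% of all probe sets. An unadjusted p under 0.05 was found for 3 of them, Tnnc1 (interaction 0.67, adjusted p = 0.15, limma), the Tnni2 probe set 1438609_x_at (-0.74, adjusted p = 0.15) and Tnnt1 (0.64, adjusted p = 0.193). In old adults, 1 array against 1, the male array was higher for 8 of the 12 probe sets and lower for 4, from -1.33 on the Tnnt2 probe set 1440424_at and -0.78 for Tnni1 to 0.95 for Tnnt1. Shares of all probe sets for this split and for the unadjusted interaction p are not given here. Neither count is read as a result about the members.

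The balance of skeletal and cardiac forms was followed as the difference of their log2 signals within an array, for 5 gene pairs read from their brightest probe sets. Only its change between stages is read, since probe sets cannot be compared in level. The Tnni1 minus Tnni3 balance changed by -1.60 from E10.5 to E13.5 and by -2.41 from E10.5 to E19.5. From E10.5 to young adults it changed by -8.62. Between the 9 arrays of E17.5 to E19.5 and the 6 adult arrays it shifted by -6.06, from -2.31 ± 0.52 (SD, n = 9) to -8.37 ± 0.51 (SD, n = 6), with no overlap. Adult Tnni1 lay below the limit of 5 on all 6 arrays. With signals under the limit set to 5 the shift was -5.04, a fall of at least 33-fold. An exact two-sided permutation test gave p = 2.0e-04 (adjusted p = 5.0e-04 over 5 pairs), the smallest p that the 5005 regroupings allow. The test treats arrays of different stages within a group as interchangeable. With no overlap between the groups, its p restates the separation of the arrays.

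The Tnni2 minus Tnni3 balance shifted by -1.20 between the same arrays (exact permutation p = 2.0e-04, adjusted p = 5.0e-04) and that of Tnnt1 minus Tnnt2 by -1.14 (exact permutation p = 4.0e-04, adjusted p = 6.7e-04). For Tnnt1 minus Tnnt2 the 2 groups of arrays overlapped, with a lowest late fetal value of -5.54 and a highest adult value of -5.26. That balance was 1.27 higher at E13.5 than at E10.5 and changed by -1.58 from E10.5 to E19.5. The pairs Tnnt3 minus Tnnt2 and Tnnc2 minus Tnnc1 shifted by 0.32 (exact permutation p = 0.0719, adjusted p = 0.0899) and 0.35 (exact permutation p = 0.149, adjusted p = 0.149), both with a fast skeletal gene below 5. Tnni2 too was below 5 on 8 of the 9 late fetal and on all 6 adult arrays, so its balance compares signals under the limit. Without the male old adult array, Tnnt3 minus Tnnt2 and Tnnc2 minus Tnnc1 both passed (0.41 and 0.52, exact permutation, adjusted p = 0.0305). Without the female old adult array, Tnnt3 minus Tnnt2 passed (0.40, exact permutation, adjusted p = 0.0443).

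**Figure D5:**
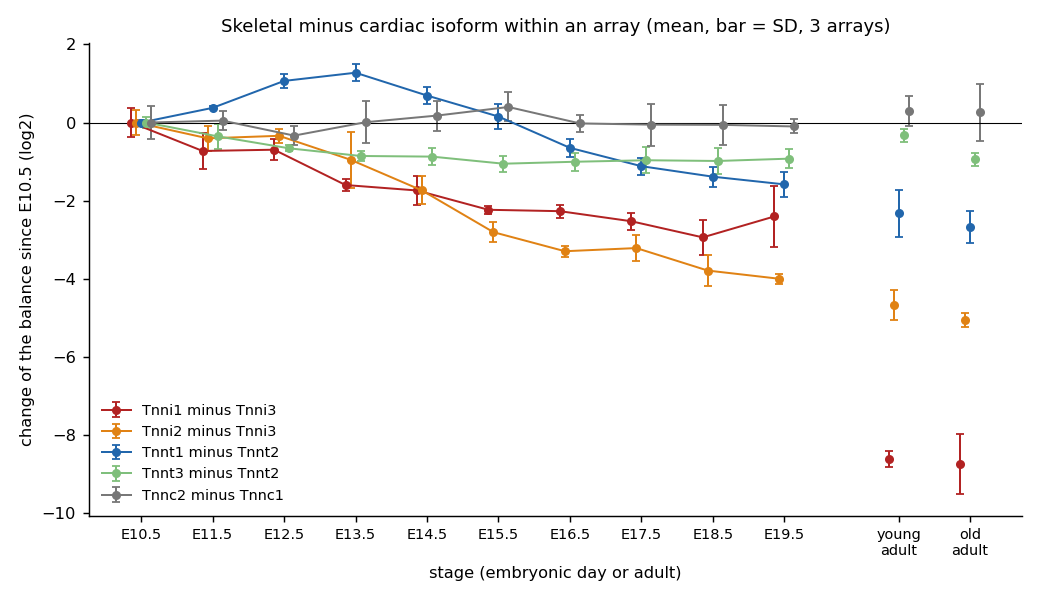
Change since E10.5 of the skeletal minus cardiac log2 signal within an array (vertical axis) at each stage (horizontal axis) for 5 gene pairs, as means of 3 arrays with SD bars, where bars are the SD of the balance at that stage. Tnni1 minus Tnni3 reaches -2.41 at E19.5 and -8.62 in young adults, and Tnnt1 minus Tnnt2 peaks at 1.27 at E13.5.

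Partners of troponin on the thin filament were counted from a list of 11 genes. Against young adults, E10.5 gave 5 with a higher and 3 with a lower signal, and E19.5 gave 3 and 4, beside 27.1% higher and 35.9% lower of all probe sets at E10.5 and 15.5% and 13.6% at E19.5. The medians were 0.43 and -0.09 beside -0.19 and -0.04 for all. Actc1, the cardiac alpha-actin gene, was higher than in young adults by 2.03 at E10.5 (adjusted p = 1.4e-07, limma) and by 0.98 at E19.5 (adjusted p = 0.0053). Acta1, the skeletal alpha-actin gene, averaged 9.63 in young adults, 7.45 at E19.5 and 10.09 at E10.5, so that E19.5 lay below young adults by 2.19 (log2 difference -2.19, adjusted p = 0.00124). Of the tropomyosin genes, Tpm2 was lower at E10.5 than in young adults (log2 difference -1.12, adjusted p = 2.0e-08). Tpm1 was higher by 0.63 (adjusted p = 0.0472), a call lost after a further quantile normalization (0.46, adjusted p = 0.114) and after median centring (0.10, adjusted p = 0.689). In old adults Tpm2 was lower than in young adults (log2 difference -0.63, adjusted p = 0.00385), 1 of the 2 partners called there. After the quantile normalization the partners gave 3 higher and 4 lower at E10.5 against young adults (median 0.11), and after median centring 3 and 5 (median -0.10). The median of all probe sets in that comparison was -0.71 after median centring. Shares of all probe sets under the 2 scalings are not given here, so the change in the counts is not read as particular to the partners.

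Kinases and phosphatases that act on troponin or its pathway were counted from another list of 11 genes. Against young adults, 8 of these had a higher signal at E10.5 and 4 at E19.5, and 0 had a lower one at either stage, beside the same shares of all probe sets as for the partners. The medians were 0.59 and 0.18, beside -0.19 and -0.04 for all. The count at E10.5 depended on the scaling, with 3 higher and 1 lower both after a further quantile normalization (median 0.18) and after median centring (median 0.06), settings chosen for the lists after seeing the data. At E19.5 the same settings gave 3 higher, with 0 and 1 lower. Shares of all probe sets under these settings are not given here either. Tnni3k, a cardiac kinase named for its binding to troponin I, averaged 4.93 in young adults, 6.74 at E19.5 and 5.03 at E10.5, and E19.5 exceeded young adults by 1.81 (adjusted p = 9.1e-09, limma). The young adult mean of Tnni3k lay below the limit of 5. Prkaca, a catalytic subunit of protein kinase A, was higher at E19.5 than in young adults by 1.52 (adjusted p = 4.4e-09) and than at E10.5 (log2 difference of E10.5 from E19.5 -1.16, adjusted p = 4.8e-07). Prkacb, another catalytic subunit in the list, went the other way, with E10.5 above E19.5 by 0.75 (adjusted p = 0.0108, limma). Its difference of E19.5 from young adults, -0.06, did not pass (adjusted p = 0.892). Both lists were read from the brightest probe set of each gene.

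The genes whose stage means ran most like those of the troponin I genes were sought among 13172 probe sets with a symbol, a stage mean above 5 and a range of means above 1. For Tnni3 these were Myom2, an M-band protein of the sarcomere (Pearson r = 0.994 over 12 stage means), Lynx1 (0.993), Ptgds, a prostaglandin D synthase (0.992), Cox8b, a subunit of cytochrome c oxidase (0.992), and Mgll, monoacylglycerol lipase (0.991). Over the 10 embryonic means alone these correlations were 0.986 to 0.994. For Tnni1 they were Supv3l1 (0.986), the imprinted RNA H19 (0.985), Mmd (0.985), Ammecr1 (0.985) and Tln1 (0.984), and these were between 0.668 and 0.835 over the embryonic means. The points share arrays and normalization, and for Tnni1 the gap between embryonic and adult stages sets most of the value.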

How the data were processed

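RNA from mouse hearts was hybridized to 36 Affymetrix mouse genome arrays. The authors made the deposited log2 values by robust multi-array average (RMA), which subtracts background, equalizes the distributions of arrays and summarizes probe sets. The submitters' processing notes also name Affymetrix Expression Console and Partek 6.6. The values were used as deposited, and 0 value columns were left unmapped. Signals of dim probe sets compress differences, and arrays give no read depth. Stage means were fitted in R 4.3.3 with limma 3.58.1 (1 model, 12 means, 36 arrays, 24 residual and 6.96 prior degrees of freedom). The isoform balance was tested by exact permutation over arrays. Sex was tested over 9 pairs with stage as a block. The procedure was checked on simulated data. The members and gene lists were chosen with earlier results of these data known, and the lists come from general knowledge. Named were all members, the 5 genes most like Tnni1 and Tnni3, and Tpm1, Tpm2, Actc1, Acta1, Tnni3k and Prkaca from the lists. Prkacb and the genes named among the cell markers were chosen after their values were seen. Genes were read first from the probe set with the highest mean over all arrays. Alternatives were a further quantile normalization, median centring, an expression filter before the model, the hybridization control level, sex label or title prefix as covariates, the compared stages alone, a log2 limit of 1, means of probe sets above 5, and leaving out each array. Median centring shifted each array by the median of its probe sets with a mean above 5 over all arrays, not of all its probe sets. Added after seeing the data were the quantile normalization for the interaction of sex with maturity, both scalings for the gene lists, and the lower bounds of folds, for which signals under the limit of 5 were set to 5.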

Additional observations from a re-analysis of the deposited data

How the results depend on the processing

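All values here are log2 differences or counts of troponin probe sets. The median of all probe sets moved from -0.19 to -0.71 at E10.5 against young adults under median centring, from -0.04 to -0.22 at E19.5, from -0.15 to -0.49 for E10.5 against E19.5 and from -0.02 to -0.16 for old against young adults. Tnni1, Tnni3 and Tnnt1 at E10.5 against young adults kept direction and call in every alternative run. The other 3 of the 6 calls there, all on Tnni2 probe sets, were lost with the hybridization control level as a covariate, and 3 others were gained. Median centring lost 1 and gained 4, the further quantile normalization lost 0 and gained 2, and the title prefix lost 1 and gained 0.

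The count of called probe sets at E19.5 against young adults was 3 when only the arrays of the compared stages were fitted, against 5, with both bright Tnnt2 probe sets lost. For E10.5 against E19.5 it was 5 with the hybridization control level as a covariate, where Tnni1, Tnnt1, Tnnt3, 1438609_x_at of Tnni2 and 1440424_at of Tnnt2 were lost and Tnnc1 gained. It was 3 with the title prefix as a block, against 9, where Tnni1, Tnnt3, 1438609_x_at and the 3 Tnnt2 probe sets were lost. Titles begin with the word heart from the E16.5 female array on, so E16.5 alone holds both kinds, and otherwise prefix and stage cannot be told apart. For old against young adults the 1 call was lost (0 called) with the expression filter before the model, which leaves Tnnt3 out, with the hybridization covariate and with the compared stages alone, and leaving out 1 array gave 0 to 1. Under the stricter rule, E10.5 against young adults gave 1 (Tnni1) with the compared stages alone and 1 (Tnni1) with the title prefix, against 3. E10.5 against E19.5 gave 0 with the hybridization covariate, with the compared stages alone and with the title prefix, 2 with a log2 limit of 1, and 0 to 1 without 1 array, against 1. The daily steps gave 0 to 1 without 1 array. The hybridization level differs between stages. Within stages it also ran against 6 of the 8 member probe sets above 5 (r from -0.80 to -0.52). A stage difference and an array effect taken up by this covariate therefore cannot be told apart. For the other settings the cause was not tested.

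Isoform balances of E19.5 against young adults alone were -6.22 for Tnni1 minus Tnni3, -0.67 for Tnni2 minus Tnni3 and -0.74 for Tnnt1 minus Tnnt2, with adjusted p from 0.167 to 0.2, since 3 arrays against 3 cannot pass. After a further quantile normalization, Tnnt3 minus Tnnt2 was 0.30 and Tnnc2 minus Tnnc1 0.47, both passing (exact permutation, adjusted p = 0.0476). Leaving out 1 array gave 0.22 to 0.41 for the former and 0.26 to 0.52 for the latter.

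Sign changes were found for differences that had not passed, and for Tnni1 in E10.5 against E19.5, which was -0.11 with the hybridization covariate. With that covariate Tnnc1 was -1.37 at E10.5 and -0.43 at E19.5 against young adults and -0.33 in old against young adults, and Tnni2 at E19.5 against young adults was -0.48. In old against young adults Tnnt2 was -0.15 and Tnni3 -0.17 under it. After quantile normalization Tnnc1 at E10.5 against young adults was -0.053 and Tnnt2 in old against young adults -0.041. Median centring gave -0.42 for Tnnc1 and -0.30 for Tnnt3 at E10.5 against young adults, and -0.12 for Tnnt2 and -0.079 for Tnni3 in old against young adults. The title prefix as a block gave -0.020 for Tnnt3 at E10.5 against young adults and 0.0086 for Tnnc1 in E10.5 against E19.5. Leaving out 1 array gave -0.065 to 0.14 for Tnnt2, -0.087 to 0.18 for Tnni3, -0.016 to 0.37 for Tnnc1, -0.24 to 0.23 for Tnni1 and -0.64 to 0.0053 for Tnnt1 in old against young adults, and -0.23 to 0.0013 for Tnnc1 in E10.5 against E19.5.

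E10.5 and E11.5 share replicate numbers. Deviations of same-numbered arrays correlated at 0.25, -0.27 and 0.17, so that not every pair was above 0.1 and the numbers were not taken as pairs. With the number as a replicate block, 0 troponin probe sets were called from E10.5 to E11.5, as without it, while calls over all probe sets went from 1140 to 1315. Not every array correlated best with its own number.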
